A study of Mus musculus with 13 samples.

Results

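Auranofin and atorvastatin were set against each other directly as single drugs in the atherosclerotic mouse aorta, across all genes. The samples were assigned to the groups by their labels alone: 3 libraries of the auranofin group and 3 of the atorvastatin group, 6 of the 13 libraries of the series. The groups to compare and the gene lists were chosen with earlier results of these data known. Of 56,953 genes in the count table, 18,055 had enough counts to be tested. All mice of the series carried the genotype ApoE-/-, which leaves them without apolipoprotein E, and all were fed a Western diet for 16 weeks from the age of 6 weeks. The auranofin group received auranofin at 3 mg/kg/day in that diet, and the atorvastatin group atorvastatin at 10 mg/kg/day. A combination group received both drugs at those doses (2 libraries), and a WD group the diet alone (5 libraries). These last groups entered the fit and are quoted only as a frame for the comparison of the single drugs. Whole aorta was taken at week 16, and no wild-type or normal-diet aorta is among the samples. Mice were randomized to the groups, but the labels do not tie each library to a separate mouse, so the p-values measure only the spread between these samples, which may be technical. The labels used here give no batch and no hour of tissue collection.

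Auranofin, a drug for rheumatoid arthritis that contains gold, blocks thioredoxin reductases, selenium enzymes that keep thioredoxin reduced, and cells that lose this activity are known to turn on antioxidant genes through the transcription factor NRF2. Atorvastatin is a statin. It blocks the rate-limiting step of cholesterol synthesis, and when sterols run low the transcription factor SREBP-2 is known to turn on the genes of cholesterol synthesis and uptake. Either drug changes the activity of its target enzyme, which RNA does not show.

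The 6 libraries held 22,232,290 to 24,156,822 counts each, with 23,988 to 25,122 genes detected. Markers of the labelled tissue were present in all 6. The mean log2(CPM + 0.5) of 16 contractile smooth muscle genes was 6.69 to 8.23 with auranofin and 8.04 to 8.50 with atorvastatin, where CPM is the usual library-scaled count with the total multiplied by its TMM factor. That of 15 endothelial genes was 5.67 to 6.90 with auranofin and 5.49 to 5.90 with atorvastatin, and that of 15 adventitial fibroblast genes 7.64 to 8.04 with auranofin and 7.33 to 7.66 with atorvastatin. Auranofin 2 stood apart. Mitochondrial genes took 38.8% of its counts, its TMM factor was 0.629, and its smooth muscle value was the lowest of all 13 libraries. Mitochondrial genes took 24.0% and 16.0% of counts in auranofin 1 and auranofin 3, against 12.2%, 14.9% and 21.1% with atorvastatin; the group means were 26.3% (SD 11.5, n = 3) and 16.1% (SD 4.54, n = 3). That difference of 10.2 percentage points was within the spread of the libraries (exact permutation test, two-sided p = 0.2, where 3 against 3 libraries cannot go below 0.1). The root mean square log2 difference over genes was 0.761 and 0.763 between auranofin 2 and the other two auranofin libraries, and 0.773 to 1.02 between auranofin 2 and the atorvastatin libraries. It was 0.378 between auranofin 3 and atorvastatin 3, less than between any pair of one drug group, where it was at least 0.418. Values without auranofin 2 are given beside many of the gene lists and some of the genes that moved when it was left out.

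No gene passed the test between auranofin and atorvastatin in edgeR, while the matrix genes of the vessel wall were lower with auranofin as a group and the genes of T cells were higher. The adjusted p-values of the edgeR quasi-likelihood test (Benjamini-Hochberg) started at 0.826, and 0 of 18,055 genes (0%) were under 0.05. At an unadjusted p under 0.05 there were 795 genes (4.4%), of which 374 (2.07%) were higher with auranofin and 421 (2.33%) lower. The 3 auranofin values and the 3 atorvastatin values did not overlap at 2444 genes (13.5%), 1067 higher with auranofin (5.91%) and 1377 lower (7.63%). The median log2 fold change over all tested genes was 0.00, with 50.1% of genes fitted above 0 and 49.9% below. DESeq2 called 5 genes (0.0277% of the 18,019 it gave an adjusted p), and limma called 0, with a smallest adjusted p of 0.161 and 1946 genes at an unadjusted p under 0.05. The edgeR count of 795 was 142 without auranofin 2, 248 without atorvastatin 1, 412 without atorvastatin 2 and 1604 without auranofin 3. In simulated counts of this design, the same fit found 0% of 200 genes given a 2-fold difference. It found 55% at 4-fold and 88.5% at 8-fold. False calls among the 17,855 genes given no difference were 0 at 2-fold, 11 at 4-fold and 9 at 8-fold. Whether the fit finds 2-fold differences in the real libraries was not tested.

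**Figure D1:**
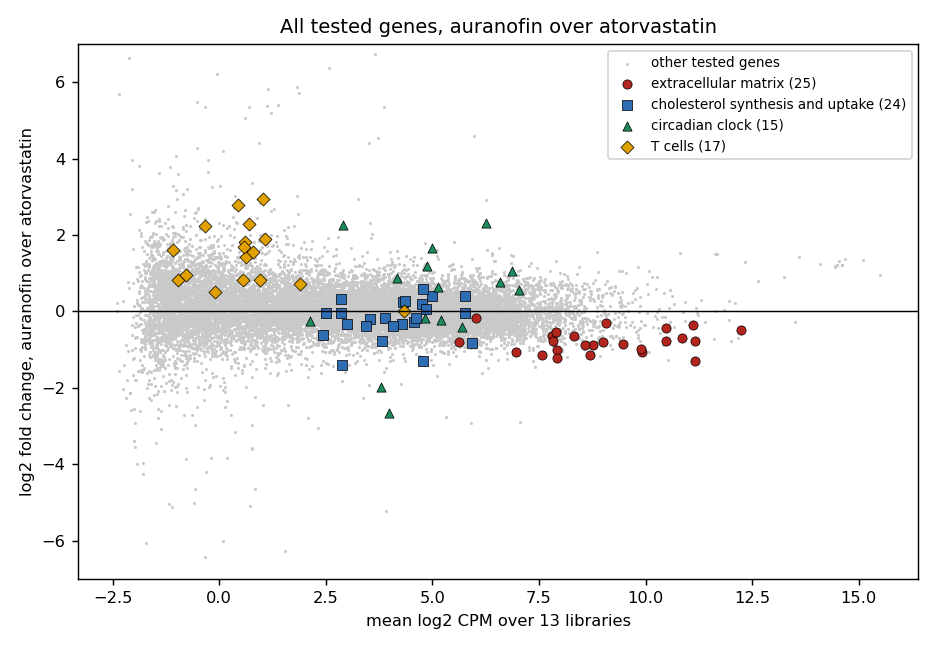
Log2 fold change of auranofin over atorvastatin (vertical axis) against the mean log2 CPM over 13 libraries (horizontal axis) for the 18,055 tested genes, each a point, with 4 gene lists marked. All 25 extracellular matrix genes lie below 0, all 17 T cell genes above it, and the clock genes spread to both sides; 1 gene lies beyond the axis limit of 7.

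Among single genes, the 5 that DESeq2 called were led by Creb3l1 (ENSMUSG00000027230), a transcription factor held in the membrane of the endoplasmic reticulum that is known to drive type I collagen genes in mouse osteoblasts. It had 22.1, 24.6 and 28.1 CPM with auranofin, against 45.0, 45.5 and 42.0 CPM with atorvastatin. Every auranofin value lay below every atorvastatin value, and also below the WD aortas, at 31.3 to 42.2 CPM, and the combination, at 38.4 and 31.8 CPM. The log2 fold change was −0.82 (SE 0.17) in edgeR, with an adjusted p of 0.826, and −0.82 in DESeq2, with an adjusted p of 0.00492. It was between −0.91 and −0.74 whichever of the 6 libraries was left out.

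Plec, plectin, which links intermediate filaments to the cell cortex, had 94.9, 102 and 108 CPM with auranofin and 188, 182 and 139 CPM with atorvastatin. Its log2 fold change was −0.74 (SE 0.19), and its DESeq2 adjusted p was 0.0119. The WD aortas held 129 to 150 CPM, so the groups of the single drugs lay to either side of them, with atorvastatin 3 inside their range. Lrrn4cl was the called gene on the other side, with 20.02, 39.6 and 20.5 CPM with auranofin and 7.34, 10.7 and 9.32 CPM with atorvastatin. Its log2 fold change was 1.55 (SE 0.33; 1.15 without auranofin 2), with a DESeq2 adjusted p of 0.0317. BB365896, a transcript named by its clone and so outside the rule for named genes, was the fifth. It had 15.2 CPM in auranofin 2, 2.04 and 0.67 CPM in the other auranofin libraries and at most 0.38 CPM with atorvastatin.

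The other genes with the smallest p-values in edgeR, none of which passed, had mixed roles. Among those lower with auranofin, Zfp469, whose human counterpart is mutated in brittle cornea syndrome, had 3.42, 1.98 and 2.53 CPM with auranofin and 7.07, 6.83 and 4.53 CPM with atorvastatin. Cnnm4, a magnesium transporter, was at −0.95 (SE 0.25), Spata2, an adaptor in tumour necrosis factor signalling, at −0.66 (SE 0.18), Rasl11a, a small GTPase, at −1.28 (SE 0.36), and Cdh3, P-cadherin, at −1.40 (SE 0.41). At each of these 5 genes the groups did not overlap, against 7.63% of all genes separate and lower with auranofin. The 5 were picked by smallest p from the same libraries, so this adds no separate evidence. Among those higher with auranofin, Dact2, an inhibitor of Wnt and TGF-beta signalling, had 3.05, 5.27 and 5.66 CPM with auranofin and 1.89, 1.97 and 1.22 CPM with atorvastatin. Ackr4, a receptor that removes chemokines of lymphocyte homing, was at 1.92 (SE 0.46), Atp2b2, a calcium pump, at 1.44 (SE 0.43), Slc52a3, a riboflavin transporter, at 1.43 (SE 0.45), Nova1, a splicing factor, at 1.24 (SE 0.40) and Gimap6, a GTPase of lymphocytes and endothelium, at 1.09 (SE 0.36). Auranofin 2 held the highest value of the 6 libraries for each of these last 5, such as 12.1 CPM of Ackr4 against 3.17 and 3.35 CPM in the other auranofin libraries and 1.51 to 1.81 CPM with atorvastatin. Without auranofin 2 the log2 fold changes were 1.00 for Ackr4, 0.72 for Atp2b2, 0.78 for Slc52a3, 0.50 for Nova1 and 0.49 for Gimap6.

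Genes of the extracellular matrix leaned one way: all 25 had a fitted value below 0, that is, lower with auranofin than with atorvastatin, against 49.9% of all genes. These genes encode the collagens, elastic fibre proteins and crosslinking enzymes that give the arterial wall its strength and form the fibrous cap of a plaque. The median log2 fold change was −0.80 over the 25 genes and 0.00 over all genes tested. An unadjusted p under 0.05 was found for 11 of 25, all lower with auranofin, against 2.33% of all genes, and the libraries did not overlap at 15 of 25, against 7.63%. None passed after adjustment in edgeR, and 1, Col1a1, passed in DESeq2. The members share cells of origin and are not independent of each other.

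Col1a1 (ENSMUSG00000001506), the main chain of type I collagen, had 485, 540.1 and 785 CPM with auranofin and 1323, 1478 and 961 CPM with atorvastatin. The group means were 603 ± 159.9 CPM and 1254 ± 266 CPM (SD, n = 3 each), and the WD range was 833 to 1082 CPM, so all auranofin libraries lay below the WD range while atorvastatin 1 and atorvastatin 2 lay above it. The log2 fold change was −1.06 (SE 0.27), and the DESeq2 adjusted p was 0.0119. Fn1, fibronectin, had 1467, 669 and 2189 CPM with auranofin and 4446, 4176 and 2068 CPM with atorvastatin, so auranofin 3 overlapped with atorvastatin 3. Col5a1, a chain of type V collagen that starts new collagen fibrils, had 205, 80.4 and 231 CPM with auranofin and 411, 365 and 262 CPM with atorvastatin. Loxl2, a lysyl oxidase that crosslinks collagen, had 36.5, 22.001 and 49.3 CPM with auranofin and 71.1, 66.2 and 50.8 CPM with atorvastatin. In both genes the highest auranofin value came close to the lowest atorvastatin value without crossing it. The elastic fibre gene Eln, elastin, chosen after its values were seen, had 1333, 1381 and 2114 CPM with auranofin and 2780, 2655 and 2835 CPM with atorvastatin. The WD aortas ranged from 887 to 3854 CPM of Eln, wider than both drug groups together. Col3a1, type III collagen, was at −0.71 (SE 0.33), and the smallest difference of the list was that of Col8a1 at −0.18 (SE 0.53).

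The mean log2(CPM + 0.5) of the 25 matrix genes was 8.52, 7.79 and 8.998 with auranofin and 9.51, 9.40 and 9.01 with atorvastatin, with 8.36 to 9.28 in WD. Auranofin 2 was the lowest of the 13 libraries and atorvastatin 1 the highest. Auranofin 3 and atorvastatin 3 were almost level. Against WD, with the WD libraries shared, the medians of the list were −0.44 with auranofin and 0.43 with atorvastatin. Without auranofin 2 the median between the drugs was −0.57, with 25 of 25 genes still below 0 and 2 at an unadjusted p under 0.05. That count was 1 without atorvastatin 1 and 7 without atorvastatin 2. Over all genes the count lower with auranofin fell as well, from 421 to 84 without auranofin 2. It was 149 without atorvastatin 1 and 219 without atorvastatin 2.

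Smooth muscle cells make much of this matrix, and their contractile genes were lower too, 15 of 16 with a median of −0.41 and 0 at an unadjusted p under 0.05. Their mean log2(CPM + 0.5) was 8.23, 6.69 and 8.15 with auranofin and 8.50, 8.04 and 8.44 with atorvastatin, and no defining marker was at 0 in any of these libraries: Acta2, smooth muscle actin, had 4741 to 10,258 CPM with auranofin and 8174 to 11,542 CPM with atorvastatin. Without auranofin 2 the smooth muscle median was −0.13. In whole tissue, fewer cells of a type and less RNA per cell cannot be told apart. The part of smooth muscle content in the matrix result was not tested.

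**Figure D2:**
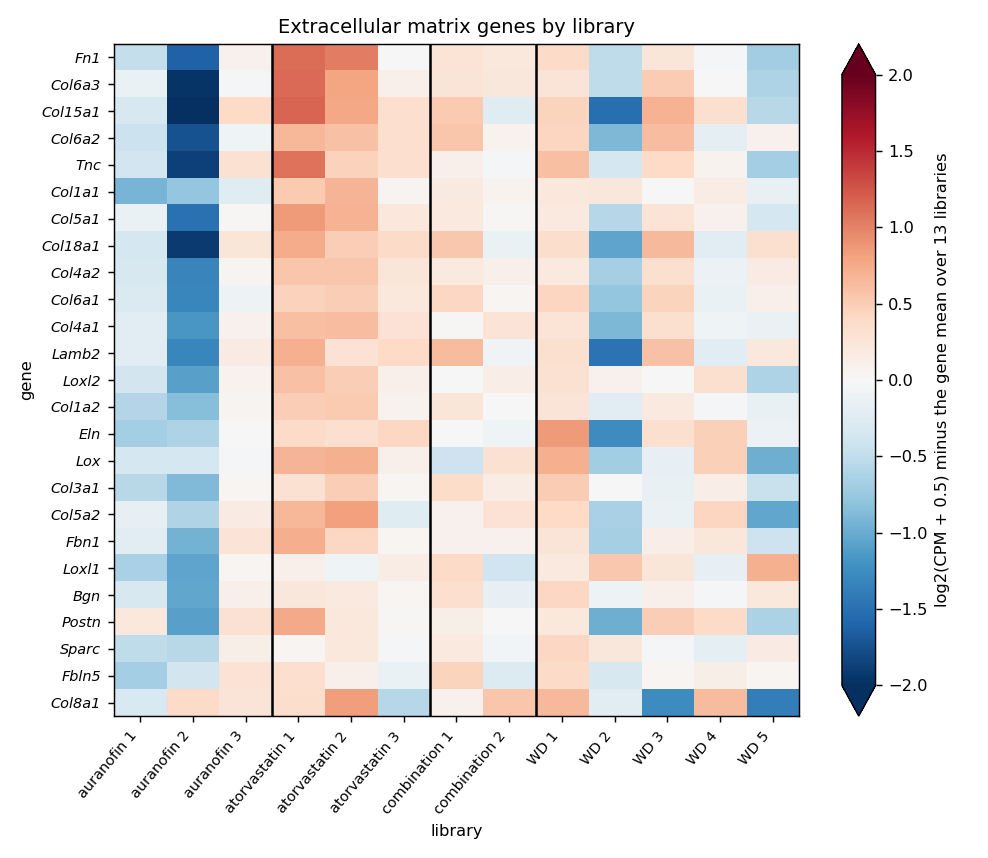
Log2(CPM + 0.5) of the 25 extracellular matrix genes in the 13 libraries, each gene shown as the difference from its own mean (colour), ordered by fold change with the most negative at the top. Auranofin 2 is low for most genes, atorvastatin 1 and atorvastatin 2 are high, and auranofin 3 and atorvastatin 3 lie between them.

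Genes of TGF-beta signalling, a pathway known to drive collagen synthesis in smooth muscle cells and fibroblasts, leaned the same way. Of 17 genes, 16 were below 0, with a median of −0.32. At an unadjusted p under 0.05 there were 3, all lower with auranofin, against 2.33% of all genes, and 0 without auranofin 2 or without atorvastatin 1. The count of all genes lower with auranofin was 421, and 84 and 149 in those fits. Among the ligands, Tgfb3 had 64.8, 42.8 and 69.9 CPM with auranofin and 109, 74.95 and 109.6 CPM with atorvastatin, and Tgfb2 had 40.6, 14.8 and 48.9 CPM with auranofin and 102, 57.8 and 46.7 CPM with atorvastatin. Tgfb3 was separate between the groups, and Tgfb2 overlapped through auranofin 3 and atorvastatin 3. The target Ccn2, connective tissue growth factor, had 1152, 396 and 983 CPM with auranofin, against 2394, 1602 and 2171 CPM with atorvastatin, a log2 fold change of −1.28 (SE 0.52; −0.95 without auranofin 2). Matrix proteases and their inhibitors were mixed, with 9 of 15 below 0 and a median of −0.24.

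Cartilage and calcification genes, which are turned on in calcifying plaques, were below 0 in 13 of 15, with a median of −1.15, and the spread within each drug group was wide. Col10a1, collagen of hypertrophic cartilage, had 0.626, 0.329 and 2.12 CPM with auranofin and 20.3, 100.4 and 0.378 CPM with atorvastatin. Atorvastatin 1 and atorvastatin 2 held the high values, and atorvastatin 3 lay among the auranofin values. The median was −0.62 without atorvastatin 2.

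Genes of cholesterol synthesis and uptake leaned lower with auranofin by a small step. Of 24 tested genes, 16 were below 0, with a median of −0.17. The 4 at an unadjusted p under 0.05 were all lower with auranofin, against 2.33% of all genes, and Srebf2 and Sqle were among them. The libraries did not overlap at 7 genes lower with auranofin, against 7.63% of all genes, and at 1 gene higher, Ebp, against 5.91%. No member passed after adjustment in edgeR, DESeq2 or limma.

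Srebf2, which encodes SREBP-2 itself, had 42.9, 27.7 and 58.5 CPM with auranofin and 81.9, 71.8 and 76.8 CPM with atorvastatin, a log2 fold change of −0.83 (SE 0.29). Its WD values, at 43.9 to 77.1 CPM, spanned the gap between the groups.

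Among the enzymes, Sqle, squalene epoxidase, had 12.4, 6.85 and 13.3 CPM with auranofin and 19.9, 15.8 and 20.2 CPM with atorvastatin. Idi1, which isomerizes isopentenyl diphosphate, had 21.2, 20.1 and 18.6 CPM with auranofin and 23.1, 24.8 and 27.6 CPM with atorvastatin, separate but by a small step of −0.33 (SE 0.29). Hmgcs1, an early enzyme of the pathway, was at −0.04 (SE 0.38), and Insig1, which holds SREBP-2 back when sterols are plentiful, at 0.42 (SE 0.51; 0.05 without auranofin 2). Hmgcs1 had 51.4 to 78.7 CPM with auranofin and 57.6 to 75.7 CPM with atorvastatin, and its WD median was 37.8 CPM. Ebp, a sterol isomerase, had 23.1, 36.6 and 21.9 CPM with auranofin and 14.6, 18.8 and 20.5 CPM with atorvastatin, a log2 fold change of 0.60 (SE 0.37; 0.32 without auranofin 2).

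**Figure D3:**
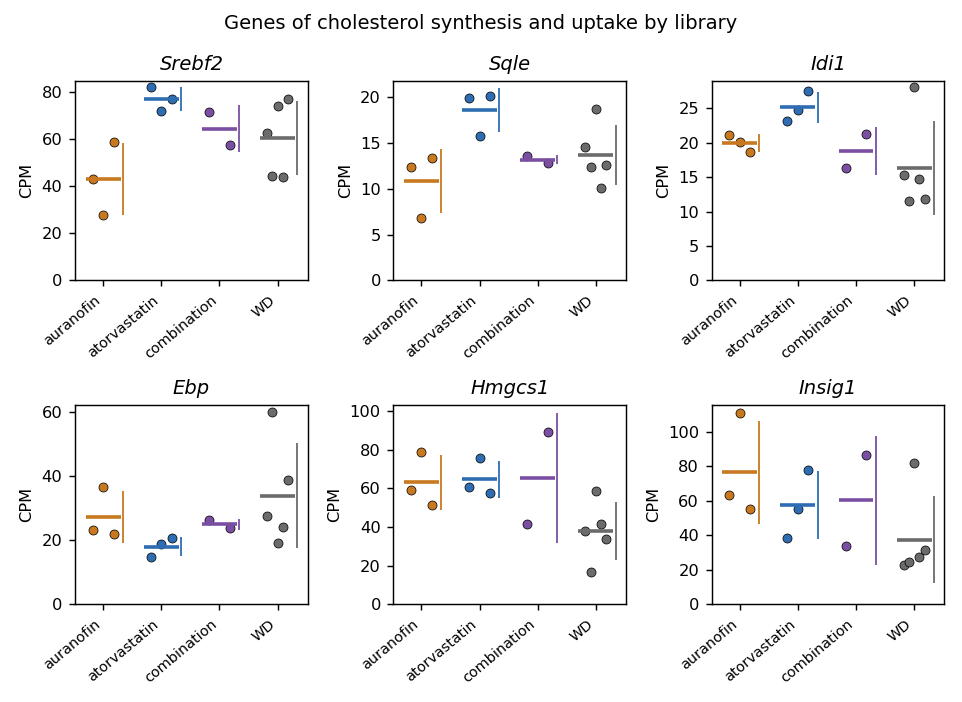
CPM of 6 genes of cholesterol synthesis and uptake, each point 1 library, with the group mean (horizontal bar) and SD (vertical line) for auranofin (n = 3), atorvastatin (n = 3), combination (n = 2) and WD (n = 5). Srebf2, Sqle and Idi1 are lower with auranofin than with atorvastatin without overlap, Ebp is higher without overlap, and Hmgcs1 and Insig1 overlap.

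Genes of the thioredoxin system, which holds the target enzymes of auranofin, leaned higher with auranofin than with atorvastatin by a small step. None passed the test in edgeR. Of 24 genes of thioredoxins, peroxiredoxins and selenoproteins, 21 were above 0, with a median of 0.37 (0.20 without auranofin 2), and 0 were at an unadjusted p under 0.05. Txnrd1, thioredoxin reductase 1, had 46.6, 39.3 and 54.2 CPM with auranofin and 65.6, 72.0 and 45.7 CPM with atorvastatin, a log2 fold change of −0.39 (SE 0.26), and its groups overlapped. Txnrd2, the mitochondrial form, was at 0.19 (SE 0.30), with the sign turning to −0.08 without auranofin 2. Txn1, thioredoxin, had 95.9, 149.6 and 91.2 CPM with auranofin and 63.6, 82.7 and 93.7 CPM with atorvastatin. The mean log2(CPM + 0.5) of the list was 6.26, 6.72 and 6.26 with auranofin and 5.82, 6.11 and 6.28 with atorvastatin, and WD 2 and WD 5 exceeded all 6 at 7.34 and 6.84. Both of those WD libraries, like auranofin 2, had TMM factors below the others, at 0.639 and 0.801. Against WD, with the WD libraries shared, the medians of the list were −0.31 with auranofin and −0.74 with atorvastatin. Fitted above WD were 6 of 24 genes with auranofin and 2 of 24 with atorvastatin.

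Lists of NRF2 targets and stress genes had medians of −0.23 to 0.16 with all libraries. Of 22 NRF2 targets 16 were above 0, with a median of 0.16 and 0 at an unadjusted p under 0.05. Hmox1, heme oxygenase 1, was at 0.46 (SE 0.55), Nqo1, a quinone reductase, at 0.22 (SE 0.28), Gclm, a subunit of the first enzyme of glutathione synthesis, at 0.14 (SE 0.15) and Srxn1, sulfiredoxin, at −0.10 (SE 0.19). The metallothioneins Mt1 and Mt2, which bind metals, were at 0.20 (SE 0.57) and 0.17 (SE 0.80). The heat shock gene Hspa1a had 351, 33.5 and 35.5 CPM with auranofin and 275, 110.1 and 498 CPM with atorvastatin, a spread within each group larger than the difference. The list median was −0.23 for 14 heat shock genes (−0.02 without auranofin 2 and 0.02 without auranofin 3). Without auranofin 1 the heat shock median was −0.60, with 13 of 14 genes below 0 and 5 at an unadjusted p under 0.05. The list medians were 0.04 for 18 genes of the unfolded protein and integrated stress response and 0.03 for 14 apoptosis genes.

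Clock genes lay on both sides, and the drugs did not overlap at 8 of 15 tested genes. In this loop the activators ARNTL (BMAL1) and CLOCK, or NPAS2 in place of CLOCK, switch on E-box genes. These include the PAR bZIP factors DBP and TEF, the period genes and CIART, and many of their products feed back on the activators over the day. Arntl and Npas2 were lower with auranofin, and Dbp, Tef, Per3 and Ciart were higher: 6 genes were separate and higher with auranofin, against 5.91% of all genes, and 2 were separate and lower, against 7.63%. At an unadjusted p under 0.05 there were 4 higher, against 2.07% of all genes, and 1 lower, against 2.33%. None passed after adjustment in edgeR. The count of 5 was 3 without auranofin 1, 2 without auranofin 3, 3 without atorvastatin 1 and 1 without either of the other two atorvastatin libraries. Over all genes the count was 795, and 806, 1604 and 248 in the first 3 of those fits. It was 412 without atorvastatin 2 and 912 without atorvastatin 3.

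Of the activators, which were named after their values were seen, Npas2 had 5.26, 1.98 and 7.34 CPM with auranofin and 30.7, 30.3 and 31.5 CPM with atorvastatin. The log2 fold change was −2.65 (SE 0.83; adjusted p 0.826 in edgeR). Arntl had 8.43, 3.49 and 6.67 CPM with auranofin and 20.7, 24.6 and 27.8 CPM with atorvastatin, at −1.97 (SE 0.94). Clock was at −0.41 (SE 0.36), and its groups overlapped. Of the E-box genes and their relatives, Dbp had 71.2, 70.3 and 118 CPM with auranofin and 21.6, 14.2 and 16.5 CPM with atorvastatin, at 2.31 (SE 0.98). Per3, a period gene, had 41.5, 45.4 and 49.5 CPM with auranofin and 18.3, 11.8 and 13.2 CPM with atorvastatin, at 1.66 (SE 0.63). Tef had 139, 133 and 164 CPM with auranofin and 80.0, 63.6 and 66.0 CPM with atorvastatin. Nr1d2, the repressor REV-ERB beta, was at 0.78 (SE 0.33). Ciart, a repressor of the activators, had 7.63, 5.99 and 9.57 CPM with auranofin and 1.70, 1.52 and 1.595 CPM with atorvastatin. Bhlhe41, another repressor that binds E-boxes, had 27.5, 28.1 and 44.7 CPM with auranofin and 15.9, 16.6 and 11.6 CPM with atorvastatin. Ciart and Bhlhe41 were likewise named after their values were seen. Per1, Per2, Cry1, Cry2, Hlf and Nr1d1 overlapped between the groups. Per1, Cry1 and Cry2, repressors of the loop, were fitted below 0, at −0.23 (SE 0.31), −0.25 (SE 0.26) and −0.16 (SE 0.31).

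The untreated aortas took both positions on their own. Npas2 had 31.3, 18.6 and 23.6 CPM in WD 1, WD 3 and WD 4 but 1.92 and 4.72 CPM in WD 2 and WD 5. Dbp had 12.7 and 14.4 CPM in WD 1 and WD 4, 55.7 CPM in WD 3, and 212 and 180.5 CPM in WD 2 and WD 5. The 2 libraries of the combination also lay apart, with 4.36 and 12.99 CPM of Npas2 and 173 and 27.2 CPM of Dbp. For Npas2 and Dbp, WD aortas thus lay near the values of either drug, and the part of the hour of collection, which the labels do not give, was not tested.

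**Figure D4:**
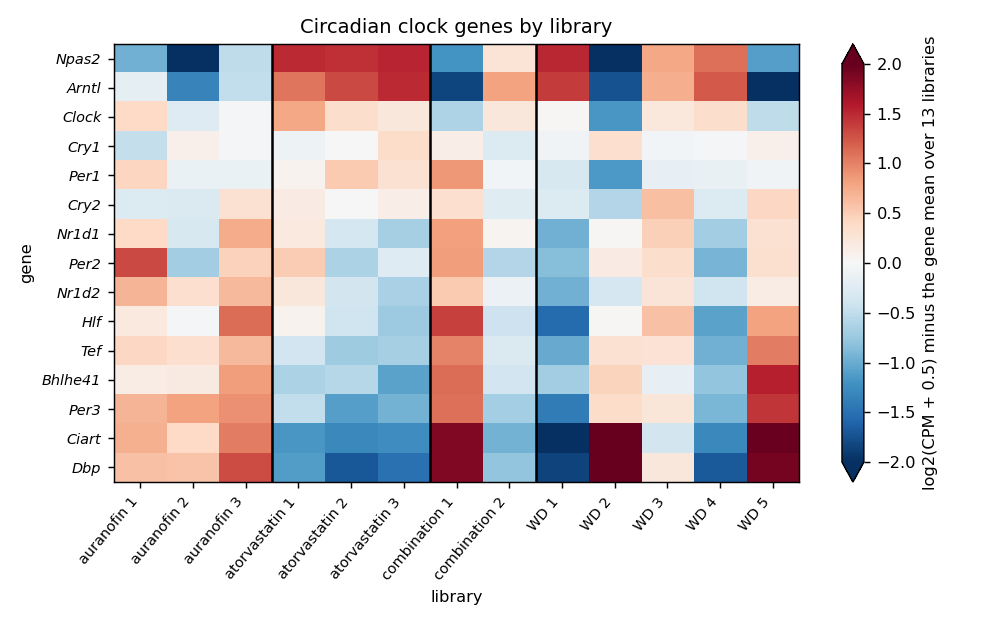
Log2(CPM + 0.5) of the 15 tested clock genes in the 13 libraries, each gene shown as the difference from its own mean (colour). The 3 auranofin libraries are low for Npas2 and Arntl and high for Per3, Ciart and Dbp, the 3 atorvastatin libraries the reverse, and the WD and combination libraries fall on both sides.

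The promoters of the clock genes that were separate between the drugs are shown for the control elements of the loop that a letter search found in them. Promoter sequences were those of RefSeq on the build GRCm38.p6, 250 bases before to 50 after each start site; 14 of the 15 tested clock genes had one, 19 promoters in all. The motifs searched on both strands were the E-box CACGTG, held by 7.15% of 32,851 mouse promoters of the same length, the D-box TTANGTAA that DBP and TEF bind, held by 2.32%, and the ROR element TAGGTCA that REV-ERB and ROR proteins bind, held by 2.61%. The E-box was in a promoter of 5 clock genes, the D-box in that of Per3 and the ROR element in that of Arntl. A match is a description of the letters and does not show that a factor binds. Each stretch runs 5′ to 3′ along the gene, with the motif in capitals. The Ciart stretch (chr3:95882247-95882358, minus strand) holds 3 E-boxes, those of Tef (chr15:81811254-81811303, plus strand) and Bhlhe41 (chr6:145865546-145865595, minus strand) hold 1 each, the Per3 stretch (chr4:151044796-151044890, minus strand) holds 2 D-boxes, and the Arntl stretch (chr7:113207529-113207558, plus strand) holds the ROR element.
Ciart: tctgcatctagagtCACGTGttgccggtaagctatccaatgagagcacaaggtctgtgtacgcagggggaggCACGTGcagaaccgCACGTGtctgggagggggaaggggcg
Tef: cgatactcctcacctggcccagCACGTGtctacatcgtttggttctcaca
Bhlhe41: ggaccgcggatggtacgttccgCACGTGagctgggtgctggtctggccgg
Per3: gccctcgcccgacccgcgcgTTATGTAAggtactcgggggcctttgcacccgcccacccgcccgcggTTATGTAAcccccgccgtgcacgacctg
Arntl: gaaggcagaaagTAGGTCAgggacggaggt
Of the 4 genes shown that were higher with auranofin, Ciart, Tef and Bhlhe41 carry the E-box and Per3 the D-box, and Arntl, with the ROR element, was lower. Per1 and Cry1 also hold an E-box and overlapped between the groups, and Npas2, Nr1d2 and Dbp hold none of the 3 motifs in this window.

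T cell genes were higher with auranofin, most of all in auranofin 1 and auranofin 2. All 17 genes were fitted above 0, against 50.1% of all genes, with a median of 1.55. At an unadjusted p under 0.05 there were 9, all higher with auranofin, against 2.07% of all genes, and the libraries did not overlap at 6, against 5.91%. None passed after adjustment in edgeR. All levels were low. Trbc2, a constant segment of the T cell receptor beta chain, had 5.21, 6.52 and 0.931 CPM with auranofin and 0.151, 0.683 and 0.798 CPM with atorvastatin. Cd8b1, a chain of the CD8 coreceptor of cytotoxic T cells, had 4.46, 4.02 and 0.559 CPM with auranofin and 0.378, 0.532 and 0.378 CPM with atorvastatin, a log2 fold change of 2.79 (SE 0.89). Lck, the kinase next to the receptor, had 4.42, 5.99 and 1.38 CPM with auranofin and 0.567, 1.29 and 1.26 CPM with atorvastatin. Auranofin 3 lay close to the atorvastatin libraries in each of these genes. Cd3e, part of the receptor complex, had 0.667, 1.51 and 0.298 CPM with auranofin and 0.189 to 0.336 CPM with atorvastatin, and overlapped.

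The mean log2(CPM + 0.5) of the T cell list was 1.32, 2.22 and 0.79 with auranofin, 0.20, 0.76 and 0.61 with atorvastatin and 0.08 to 1.34 in WD. The auranofin values were all above the atorvastatin values, but auranofin 1 and auranofin 3 lay within the WD range. The median of the list was 0.56 without auranofin 2, with 16 of 17 genes above 0 and 2 at an unadjusted p under 0.05, and that count was also 2 without atorvastatin 1. The count over all genes was 795, and 142 and 248 in those fits. No T cell gene named here was at 0 in any of the 6 libraries.

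Other leukocyte lists rested on auranofin 2 to a larger extent. B cell and plasma cell genes had a median of 1.73, with 15 of 15 above 0, but −0.17 without that library. Igkc, an antibody light chain, had 7.93, 707 and 12.8 CPM with auranofin and 8.58, 4.44 and 17.3 CPM with atorvastatin, and Jchain, which joins IgA and IgM units, had 0.667, 134 and 1.97 CPM with auranofin and 2.38, 0.797 and 3.23 CPM with atorvastatin. Ighm, the IgM heavy chain, was at 619.9 CPM in auranofin 2 and at most 47.4 CPM in the other 5 libraries. Neutrophil genes had a median of 1.74 over 8 genes (0.75 without auranofin 2), mast cell genes 1.05 over 7 (0.37), genes of MHC class II presentation 0.81 over 9 (−0.10), interferon-stimulated genes 0.54 over 20 (0.03), macrophage genes 0.60 over 17 (0.07), foamy macrophage genes 0.35 over 16 (−0.02) and NF-kB inflammatory genes 0.26 over 21 (−0.32).

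Plaque macrophage genes overlapped between the drugs. Cd68, a lysosomal protein of macrophages, had 64.5, 192 and 109.8 CPM with auranofin and 69.1, 146 and 47.2 CPM with atorvastatin. Trem2, a lipid receptor of foamy macrophages, had 18.6, 70.1 and 36.4 CPM with auranofin and 27.9, 52.4 and 14.2 CPM with atorvastatin. Spp1, osteopontin, was at 0.08 (SE 1.02), Ccl2, a chemokine for monocytes, at 0.27 (SE 0.89), Il1b at 1.37 (SE 1.27) and Abca1, a cholesterol exporter, at 0.17 (SE 0.53). The sign of all 6 turned without auranofin 2. The 9 LXR targets had a median of 0.14 (−0.02 without auranofin 2).

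Genes of resident macrophages of the adventitia, the outer coat of the vessel, leaned higher with auranofin. Of 10 genes 9 were above 0, with a median of 0.86 and 0.64 without auranofin 2. At an unadjusted p under 0.05 there were 3, all higher with auranofin, against 2.07% of all genes, and the libraries did not overlap at 5, against 5.91%. Lyve1, a hyaluronan receptor of these cells and of lymphatic endothelium, had 33.8, 33.0 and 21.3 CPM with auranofin and 10.2, 18.9 and 15.3 CPM with atorvastatin. Timd4, a receptor for phosphatidylserine, had 1.46, 3.10 and 2.20 CPM with auranofin and 0.718, 1.18 and 1.13 CPM with atorvastatin. Pf4, a chemokine, had 13.8, 23.7 and 12.8 CPM with auranofin and 4.95, 6.80 and 9.57 CPM with atorvastatin. The 3 genes were separate between the drugs and did not pass after adjustment in edgeR. The count of 3 was 0 without auranofin 2 and 0 without atorvastatin 1. Over all genes the count higher with auranofin was 374, and 58 and 99 in those fits. Against WD, with its libraries shared, the median of the list was 0.11 with auranofin and −0.74 with atorvastatin.

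Adventitial fibroblast genes did not all lean one way. Pi16, a marker of progenitor-like adventitial fibroblasts, had 251, 515 and 246 CPM with auranofin and 133, 179.7 and 194 CPM with atorvastatin, a log2 fold change of 1.00 (SE 0.31; 0.56 without auranofin 2). Cd34, a surface marker of the same cells and of endothelium, was at 0.65 (SE 0.28), and Dpep1, a dipeptidase, at 0.62 (SE 0.28). Over the list 11 of 15 were above 0, with a median of 0.23. An unadjusted p under 0.05 was found for 3, all higher with auranofin, against 2.07% of all genes. The libraries did not overlap at 4, all higher with auranofin, against 5.91%. The count of 3 was 1 without auranofin 2, 1 without atorvastatin 1 and 1 without atorvastatin 2. The count of 795 over all genes was 142, 248 and 412 in those fits. Lum, lumican, and Col14a1, a fibril-associated collagen, lay on the other side, at −0.76 (SE 0.64) and −0.23 (SE 0.23).

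Endothelial genes rested on auranofin 2. Of 15 genes 12 were above 0, with a median of 0.71 and 0.00 without that library. Pecam1, a junction protein, had 532, 1427 and 396 CPM with auranofin and 327, 380.3 and 444 CPM with atorvastatin, so auranofin 2 alone stood clear. Tie1, a receptor of endothelium, had 75.7, 178 and 62.4 CPM with auranofin and 47.2, 59.7 and 65.0 CPM with atorvastatin. Nos3, endothelial nitric oxide synthase, a gene that statins are known to raise in cultured endothelium, was at 0.72 (SE 0.39), and Klf2, a flow-responsive transcription factor likewise linked to statins, at 0.43 (SE 0.47). Without auranofin 2, Pecam1 and Tie1 were both at 0.27, Nos3 at 0.02 and Klf2 at −0.33.

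Fat and mitochondrial genes were higher with auranofin, most in auranofin 2. Brown adipocyte genes had a median of 0.95 over 12 genes (0.48 without auranofin 2), general adipocyte genes 0.68 over 14 (0.35), fatty acid and triglyceride synthesis 0.19 over 18 (−0.03), the 13 genes of the mitochondrial genome 1.22 (0.40) and 19 nuclear genes of oxidative phosphorylation 0.52 (0.21). Ucp1, the uncoupling protein of brown fat, had 744, 1817 and 257 CPM with auranofin and 211, 355 and 398 CPM with atorvastatin. Adipoq, adiponectin, had 137, 202 and 105 CPM with auranofin and 39.8, 101 and 76.8 CPM with atorvastatin, separate by a small step between auranofin 3 and atorvastatin 2. With the brown adipocyte score as a covariate, the count of genes at an unadjusted p under 0.05 was 407 in place of 795, and the matrix median was −0.71. The part of perivascular fat in the other results was not tested.

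Some of the largest fold changes belonged to 1 library each. Noradrenaline genes stood high in atorvastatin 2 alone: Slc6a2, the noradrenaline transporter, had 2.21, 1.84 and 1.38 CPM with auranofin and 1.85, 40.6 and 3.02 CPM with atorvastatin. Dbh and Th, enzymes of noradrenaline synthesis, had 33.8 and 17.9 CPM in atorvastatin 2 and at most 0.672 CPM in the other 5 libraries, and Ddc, an enzyme of the same route, and Ngfr, a receptor of neurotrophins, had 13.5 and 14.5 CPM in atorvastatin 2 and at most 1.18 CPM elsewhere among the 6. The median of the 12 sympathetic neuron genes was −1.87 and −0.43 without atorvastatin 2. In auranofin 2, Pbsn, probasin, a secreted protein of the rodent prostate, had 31.8 CPM, and Tgm4, the prostate transglutaminase, 17.7 CPM. No other library among the 6 exceeded 0.112 CPM of Pbsn or 1.25 CPM of Tgm4. The source of these transcripts was not tested.

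Immediate early genes, which respond within minutes to stimuli and to tissue handling, were below 0 in 13 of 16, with a median of −0.39 and 0 at an unadjusted p under 0.05, while 4 did not overlap and were lower, against 7.63% of all genes. Fosb had 16.5, 7.58 and 14.7 CPM with auranofin and 40.0, 22.7 and 33.7 CPM with atorvastatin, and Atf3 had 46.5, 35.4 and 25.8 CPM with auranofin and 62.0, 51.7 and 94.1 CPM with atorvastatin. Foxs1, a forkhead factor of perivascular cells, had 7.88, 3.43 and 9.94 CPM with auranofin and 13.2, 12.8 and 20.5 CPM with atorvastatin, at −1.12 (SE 0.41). The WD range was 15.7 to 42.4 CPM, above all of these libraries except atorvastatin 3. Modulated smooth muscle genes had a median of −0.29 over 11, cell cycle genes −0.17 over 21, Schwann cell genes −0.06 over 12, platelet genes 0.29 over 8, red cell genes 0.90 over 10, striated muscle genes 0.35 over 19, statin-linked endothelial genes 0.10 over 9 and metal response genes 0.06 over 5. Without auranofin 2 the medians were 0.12 for platelets, 0.33 for red cells, −0.01 for striated muscle, −0.27 for the statin-linked genes and −0.04 for metal response. Over the 40 lists, 28 medians were above 0 and 12 below.

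**Figure D5:**
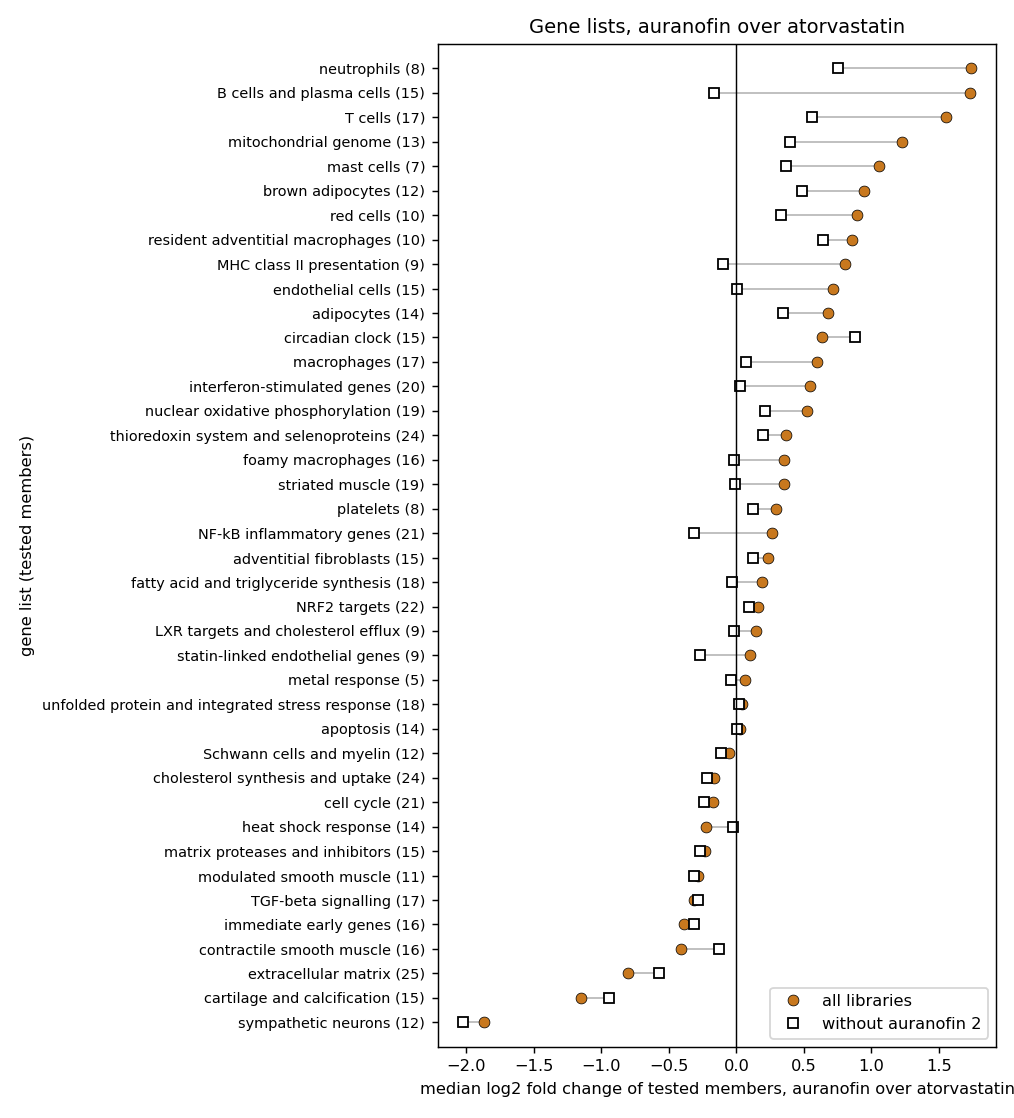
Median log2 fold change of auranofin over atorvastatin (horizontal axis) for the 40 gene lists, with the number of tested members in brackets; filled circles use all libraries and open squares leave out auranofin 2. The matrix, cartilage, TGF-beta, clock and sympathetic neuron lists stay on their side of 0 without that library. The matrix median moves from −0.80 to −0.57 and the clock median from 0.63 to 0.88. The B cell, MHC class II, endothelial, NF-kB, macrophage, foamy macrophage and interferon lists move to about 0 or below it.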

How the data were processed

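The authors' deposited values were raw read counts per gene. Per the labels' protocols, poly-A RNA of whole aorta was made into non-stranded libraries and sequenced on a DNBseq platform, so reads of overlapping antisense genes cannot be told apart. The submitters' processing notes name STAR 2.6.1d, Subread 1.6.3, featureCounts and the build GRCm39; their settings are not given in the sources used here.

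From the counts, genes were kept with edgeR's filterByExpr, scaled by TMM and tested with edgeR 4.0.16 (quasi-likelihood, two-sided) in R 4.3.3. The fit used all 13 libraries with 1 mean per group, the contrast auranofin minus atorvastatin, and Benjamini-Hochberg adjustment over all tested genes at 0.05. The tested genes held 99.9% of the counts of each library. CPM values use the TMM-scaled library size, and list levels are means of log2(CPM + 0.5). DESeq2 1.42.0, limma 3.58.1 (voom with quality weights), other filters, scalings and samples, the replicate number as a block, and a brown adipocyte covariate were alternatives. Figures were drawn with matplotlib 3.10.9. The fit was tested on simulated data.

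The groups compared, the 40 gene lists and the panel of 35 genes were chosen with earlier results of these data known. Of 611 symbols on the lists, 587 were tested. In each direction 12 genes of smallest p were named if their log2 CPM averaged 0 or more, leaving out predicted genes, clone names and antigen receptor segments. The panel genes and up to 4 members of smallest p per list, in the direction of its median, were named too. Npas2, Arntl, Ciart, Bhlhe41, Eln, Col8a1, Col14a1, Ebp, BB365896 and the clock genes that overlapped were named after their values were seen. Some genes of the lists are not reported here by name.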

Additional observations from a re-analysis of the deposited data

How the results depend on the processing

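The count of 0 genes called by edgeR was 5 with DESeq2 and 0 in the other alternatives run. The 795 genes at an unadjusted p under 0.05 became 1946 with limma, 1418 with no low-count filter, 1212 with the 6 libraries alone, 407 with the brown adipocyte covariate and 142 to 1604 when a single library of the drug groups was left out. Settings added after seeing the data gave 1253 without WD 2 and 77 without both auranofin 2 and atorvastatin 2. The non-overlapping genes, 2444 with all libraries and without WD 2, were 3144 to 6748 with 1 drug library left out and 4921 without both, a count that grows by construction with fewer libraries. The T cell median of 1.55 was 0.78 with limma, 0.56 to 1.99 with 1 library left out and 0.70 without both. The clock median of 0.63 was 0.91 with limma and 0.42 to 1.05 with 1 library left out. The cause of these shifts was not tested.

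A pairing of the samples by replicate number was not shown: deviations of same-numbered libraries correlated at 0.45, 0.15 and −0.34. Those of differently numbered libraries correlated at −0.53 to 0.36. With 3 libraries per group these values cannot decide whether samples were paired. With the replicate block, the unadjusted count was 1139 with 13 libraries and 1365 with the 6 alone, and 0 genes were called.

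Some gene lists changed sign with limma. Their medians were then −0.16 for macrophages (4 of 17 genes above 0), −0.12 for foamy macrophages, −0.27 for MHC class II presentation and −0.44 for NF-kB inflammatory genes. Metal response was at −0.16, statin-linked endothelial genes at −0.08, LXR targets at −0.03 and apoptosis at −0.03. Fatty acid and triglyceride synthesis was at −0.02 and heat shock response at 0.01. Some single genes changed sign too. With limma, Il1b was −0.66, Klf2 −0.032, Txnrd2 −0.013, Cd68 −0.15, Trem2 −0.37, Abca1 −0.16, Ccl2 −0.38, Mt2 −0.19 and Spp1 −0.59. With the brown adipocyte covariate, Insig1 was −0.093 and Txnrd2 −0.071. Over the settings that leave out 1 library or both auranofin 2 and atorvastatin 2, the range was −1.08 to 4.99 for Jchain, −0.32 to 5.22 for Igkc, −1.35 to 2.12 for Il1b, −0.43 to 0.82 for Klf2, −0.031 to 1.02 for Nos3 and −0.076 to 0.35 for Txnrd2. It was −0.0065 to 1.06 for Cd68, −0.20 to 0.97 for Trem2, −0.48 to 0.88 for Spp1, −0.21 to 0.63 for Ccl2, −0.093 to 0.58 for Abca1, −0.11 to 0.50 for Mt1, −0.11 to 0.72 for Mt2, −0.20 to 0.022 for Srxn1, −0.23 to 0.10 for Hmgcs1 and −0.48 to 0.17 for Col8a1. Without auranofin 2 the smallest adjusted p in edgeR was 1, against 0.826 with all libraries.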
